A study of Mus musculus with 21 samples.

Results

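Peritoneal B-1a cells were compared with peritoneal B-1b cells, both lacking TET2, by bulk RNA-Seq in 7 of the 21 libraries of the series, 4 of B-1a and 3 of B-1b cells. All 7 libraries came from C57BL/6 mice that lack TET2 globally, through deletion of the exons that encode its catalytic region, so both subsets carried the same genotype. The cells were sort purified through one gate for B-1 cells (B cells with low IgD, CD23 and B220) and were then divided by CD5, which B-1a cells carry and B-1b cells lack. The labels give no age, and they do not say which libraries came from the same mouse. All genes in the count files were used, and the immunoglobulin genes were described apart from the rest. The comparison asks in what the subset with CD5 differed from the subset without it when neither had TET2.

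B-1 cells arise early in life, renew themselves in the serosal cavities and secrete natural IgM. B-1a cells are known for a restricted set of antibodies, among them those built from the VH11 and VH12 families that bind phosphatidylcholine, whereas B-1b cells are known for antibodies induced by T cell-independent antigens. CD5 dampens signals from the B cell receptor, and CD23 (Fcer2a) is a low-affinity IgE receptor that marks B-2 cells. TET2 oxidizes methylated cytosine.

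Each library held 14923926 to 18426013 fragments counted on genes, of which 3.91 to 6.76% fell on immunoglobulin genes. Libraries B-1a 4 and B-1b 3 stood apart, with 18941 and 17816 genes detected against 23913 to 28140 in the other 5. No pair of the 7 libraries held the same values. Replicate numbers 1 to 3 were shared by the subsets, and libraries with the same number deviated together weakly. Values from a fit with the replicate number as a block are therefore given beside those from the fit without it.

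The gate markers matched the labels in all 7 libraries. Cd5 was at 17.8, 20.3, 16.3 and 21.8 CPM (counts scaled to the size and composition of each library) in B-1a and at 2.94, 3.55 and 5.34 CPM in B-1b libraries. The groups did not overlap, and Cd5 averaged 19.0 ± 2.46 CPM (SD, n = 4) in B-1a against 3.94 ± 1.25 CPM (SD, n = 3) in B-1b cells. Its log2 fold change, B-1a over B-1b, was 2.27 (SE 0.30), with an adjusted p of 0.0649 from edgeR's quasi-likelihood test and of 0.0578 with the replicate block, and because CD5 divided the cells this value checks the sort only. Fcer2a was at 12.96, 17.7, 8.78 and 4.75 CPM in B-1a and at 42.4, 43.0 and 33.0 CPM in B-1b libraries, without overlap (log2 fold change -1.84, SE 0.38, adjusted p = 0.297, and 0.0521 with the block). Both levels were far below the 484 to 834 CPM of the 4 TET2-KO B-2 libraries. Of the other gate genes, Ptprc and Ighd overlapped between the subsets. Tet2 itself was counted at 18.4 to 30.1 CPM in B-1a and 16.3 to 19.8 CPM in B-1b libraries. These counts cover the whole gene, which the deletion leaves in part, so they do not check the genotype.

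Among all 14634 genes tested, no gene passed an adjusted p under 0.05 in edgeR's quasi-likelihood test (0 called, 0%). The smallest adjusted p was 0.0649, and 538 genes (3.68%) had an unadjusted p under 0.05, of which 207 (1.41%) had the higher level in B-1a and 331 (2.26%) in B-1b cells. DESeq2 called 88 genes on the same libraries, 27 of them among the 45 below. With the replicate block, edgeR called 45 genes (0.308%), of which 32 were immunoglobulin genes and 13 were not. The 10 genes that rose in B-1a cells (0.0683%) were Adm, Tcstv2a, F5, Cma1, Cpa3, Retnla, Lyz1, Prg4, Lyz2 and Alox15. The 35 genes that rose in B-1b cells (0.239%) were the 32 immunoglobulin genes with B3gnt8, Irak3 and Lmo2. DESeq2 with the block called 370 genes, these 45 among them. This fit left 2 residual degrees of freedom, since B-1a 4 has no partner, and the number of calls depended on single libraries. It ran from 32 without B-1a 1 to 961 without B-1a 3, with 208 without B-1b 2, 943 without B-1b 3 and 90 without B-1a 2. Without B-1a 4 and B-1b 3, 45 genes were called without the block and 841 with it. The 45 genes kept their direction in each of these fits. The fits share the libraries from which the 45 were chosen, so this is not independent support.

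Adm and Tcstv2a rose in B-1a cells when the replicate number was in the fit. Adm encodes adrenomedullin, a secreted vasoactive peptide, and was at 59.9, 171, 79.1 and 93.2 CPM in B-1a and at 24.8, 37.3 and 23.0 CPM in B-1b libraries. Every B-1a library lay above every B-1b library, as was so for 461 of all genes (3.15%), and the log2 fold change was 1.83 (SE 0.36, adjusted p = 0.268) and 1.75 (SE 0.20, adjusted p = 0.0479) with the block. Tcstv2a was at 58.2, 126, 63.3 and 57.4 CPM in B-1a against 25.1, 32.2 and 21.5 CPM in B-1b libraries, with 1 B-1a library far above the other 3. Its log2 fold change was 1.54 (SE 0.32, adjusted p = 0.297) and 1.58 with the block (adjusted p = 0.0479). Tcstv2a belongs to a family of near-identical genes, so fragments that fit several copies were not counted. In the 4 TET2-KO B-2 libraries Adm was at 3.25 to 12.5 CPM and Tcstv2a at 2.98 to 4.73 CPM.

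B3gnt8, Irak3 and Lmo2 fell in B-1a relative to B-1b cells in the fit with the block. B3gnt8 encodes a glycosyltransferase that extends sugar chains on proteins, and was at 18.6, 20.2, 22.5 and 16.6 CPM in B-1a and at 60.5, 61.3 and 51.9 CPM in B-1b libraries. The groups did not overlap (498 genes, or 3.4%, were separated in this direction), and the log2 fold change was -1.57 (SE 0.19, adjusted p = 0.0649, and 0.0479 with the block). Irak3, an inhibitor of signals from Toll-like receptors, was at 24.3, 17.8, 27.0 and 22.1 CPM against 58.6, 40.6 and 75.8 CPM. Its libraries were separated too, with a log2 fold change of -1.36 (SE 0.25, adjusted p = 0.178, and 0.0479 with the block). Lmo2, a transcriptional cofactor of blood and germinal center cells, was at 59.7, 44.8, 41.7 and 78.3 CPM in B-1a and 120, 96.3 and 83.4 CPM in B-1b libraries. These groups also did not overlap, and the log2 fold change was -0.83 (SE 0.25, adjusted p = 0.882) and -1.04 (SE 0.11, adjusted p = 0.0479) with the block.

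The other genes named as higher in B-1a cells were separated between the subsets but passed neither fit. Ctla4, an inhibitory receptor also found on B-1 cells, was at 171, 125, 138 and 112 CPM against 71.3, 75.6 and 68.8 CPM in B-1b libraries, a log2 fold change of 0.93 (SE 0.19, adjusted p = 0.281, and 0.0769 with the block). Zcwpw1, a reader of histone methylation, was at 39.1, 43.4, 40.4 and 57.2 CPM against 18.9, 18.4 and 23.6 CPM (log2 fold change 1.15, SE 0.22). Pstpip2, a regulator of the actin cytoskeleton in myeloid cells, was 57.2 to 94.5 CPM in B-1a and 39.6 to 40.4 CPM in B-1b libraries. Rab3b, a small GTPase of secretory vesicles, was 40.7 to 82.4 CPM against 19.4 to 29.9 CPM, and Rap1gap, which switches off the GTPase Rap1, was 12.1 to 33.8 CPM against 4.87 to 8.46 CPM. Ypel2, Robo1 (a guidance receptor), Pard3b (a polarity protein) and Krt18 (a keratin) made up the rest, with log2 fold changes of 0.87, 1.63, 0.96 and 0.79. Their adjusted p-values with the block were 0.166 for Robo1, 0.172 for Ypel2, 0.352 for Pard3b and 0.317 for Krt18.

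On the B-1b side, Cpm showed the largest difference among the 24 named non-immunoglobulin genes. It encodes the membrane enzyme carboxypeptidase M and was at 9.57, 4.50, 5.36 and 2.00 CPM in B-1a and 55.3, 27.7 and 106 CPM in B-1b libraries. The groups did not overlap, and the log2 fold change was -3.56 (SE 0.55, adjusted p = 0.0771, and 0.0578 with the block). Gpr183, the oxysterol receptor that guides B cells to the edge of follicles, was at 299, 243, 285 and 281 CPM in B-1a against 580, 578 and 382 CPM in B-1b libraries (log2 fold change -0.89, SE 0.19, adjusted p = 0.337). Trim59, a RING-finger protein, and Srms, a tyrosine kinase, had log2 fold changes of -1.22 and -1.38, with every B-1b library above every B-1a library. Gsn (gelsolin, which severs actin filaments), Stard10 (a lipid transfer protein), Gpr34 (a lysophospholipid receptor), Rapgef4 (an exchange factor activated by cyclic AMP) and Pkib (an inhibitor of protein kinase A) had log2 fold changes of -1.43, -1.06, -2.03, -2.24 and -1.44. Neither Cpm nor any of these other 8 genes passed either fit, and adjusted p-values with the block ran from 0.0578 for Cpm and Trim59 to 0.273 for Gsn.

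**Figure D1:**
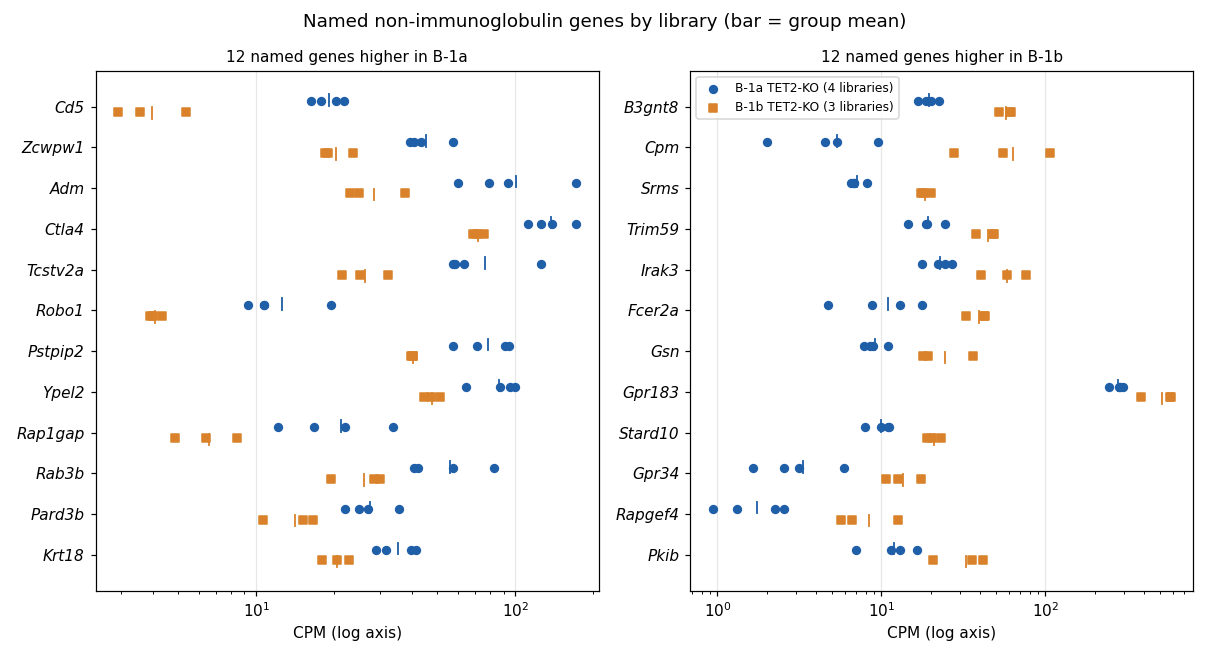
Level of the 12 named genes higher in B-1a (left) and the 12 higher in B-1b cells (right) in each TET2-KO library, in CPM on a log axis, with 4 B-1a libraries as circles, 3 B-1b libraries as squares and a short bar at each group mean. The genes were chosen for separation between the subsets, so no gene shown has overlapping groups, and the widest gaps are those of Cd5 on the left and Cpm on the right.

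Some markers of other peritoneal cells differed between the subsets too, and in edgeR they passed only with the block. Of the 10 genes that rose in B-1a cells with the block, Lyz1, Lyz2 and Alox15 are on the macrophage marker list and Cpa3 and Cma1 on the neutrophil and mast cell list. Retnla, Prg4 and F5, which are also known from peritoneal macrophages, are on neither list. Lyz2, the lysozyme of myeloid cells, was at 22135, 26675, 11367 and 4150 CPM in B-1a and 10544, 13886 and 5542 CPM in B-1b libraries. These groups overlapped, while each B-1a library numbered 1 to 3 was above the B-1b library of the same number, and the log2 fold change was 0.69 (SE 0.56, adjusted p = 0.95) and 1.02 (SE 0.08, adjusted p = 0.0224) with the block. Alox15, a lipoxygenase, was at 1467, 1141, 812 and 226 CPM against 734, 673 and 449 CPM, and Cma1, the mast cell chymase, was at 245, 388, 236 and 240 CPM against 108, 217 and 110 CPM.

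All 18 macrophage markers had a log2 fold change above 0, as did 7813 of all 14634 genes tested. Their median was 0.43 against 0.03 over all genes. With the block 3 of the 18 were called, against 0.0683% of all genes in that direction. In edgeR without the block none of the 18 had an unadjusted p under 0.05, and none was separated between the subsets. As markers of 1 cell type, they are not independent of each other. Their summed level was 5494 to 31397 CPM in B-1a and 7452 to 16811 CPM in B-1b libraries, and the defining markers Adgre1, Csf1r and Timd4 were above 0 in each library. The 9 tested neutrophil and mast cell markers had a median of 0.91, and their sum was 806 to 1264 CPM in B-1a against 364 to 717 CPM in B-1b libraries. The neutrophil genes Elane, Mpo, Ly6g and S100a9 were at 0 to 19 counts in each library and S100a8 at 0 to 34 counts, while Csf3r was at 234, 208, 205 and 28 counts in B-1a against 91, 139 and 29 counts in B-1b libraries. T cell markers summed to 47.9 to 98.6 CPM against 30.2 to 66.8 CPM, with 14 of 16 genes higher in B-1a cells. Cd3g was the member whose libraries did not overlap, at 580, 291, 225 and 386 counts in B-1a against 158, 192 and 85 counts in B-1b libraries. Cd3e was at 0 to 30 counts, Cd4 at 1 to 16 counts and Lck at 229 to 426 counts. Library B-1b 3, which had the fewest genes detected, had 0 counts of Cd3d, Trbc1, Cd8b1 and Cd247, and B-1a 4 had 0 counts of Cd3e and Il7r. Trbc1 was at 71, 69, 28 and 47 counts in B-1a and at 52, 45 and 0 counts in B-1b libraries. How far B-1b 3 set the direction of the T cell markers was not tested. NK cell and dendritic cell markers summed to at most 46.3 CPM, and the hemoglobin gene Hba-a1 had 0 to 236 counts, with the platelet gene Pf4 (also made by macrophages) at 90.3 to 373 CPM. Among mesothelial and stromal genes, Krt8 and Krt18 were counted in all libraries, while Msln and Upk3b had 0 to 6 counts. The part of these cells in the differences between the subsets was not tested, and in bulk samples more cells of a type and more RNA per cell cannot be told apart.

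B-2 cell markers were lower in B-1a than in B-1b libraries for all 9 members, with a median log2 fold change of -0.71. Over all genes tested, 46.6% were lower in B-1a cells and 3.4% were separated in that direction. Vpreb3 was at 1.59 to 5.0 CPM in B-1a against 17.1, 20.04 and 6.76 CPM in B-1b libraries. Ccr7, the receptor that draws lymphocytes to lymph nodes, was at 92.7, 117, 91.0 and 30.1 CPM against 276, 211 and 164 CPM. Cr2, the complement receptor CD21, was at 8.81, 4.63, 10.1 and 13.6 CPM against 18.02, 25.01 and 23.97 CPM. The subsets did not overlap for these 3 genes or for Fcer2a, and none of the 9 passed either fit, with adjusted p-values of 0.0521 for Fcer2a and 0.0578 for Vpreb3 with the block. Whether a few B-2 cells passed the gate of B-1b cells was not tested.

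Of the 29 gene lists, members of only the macrophage and the neutrophil and mast cell lists passed either fit (5 genes, all with the block). In the list of B-1 markers and regulators, 12 of 13 genes were higher in B-1a cells, against 7813 of all 14634 genes tested, with a median of 0.43. The exception was Pdcd1lg2, the ligand of PD-1 known from B-1a cells, which was at 14.5, 19.0, 14.97 and 9.39 CPM in B-1a and at 35.5, 27.7 and 30.7 CPM in B-1b libraries (log2 fold change -1.11, SE 0.26, adjusted p = 0.424). Bhlhe41, a transcription factor needed for B-1a cells, was at 20.7, 41.8, 37.0 and 75.3 CPM against 20.7, 33.1 and 31.7 CPM, and Il5ra, the receptor for IL-5, was at 121 to 174 CPM against 86.5 to 138 CPM, so both overlapped. Over all genes tested, 46.6% were lower in B-1a cells and 3.4% were separated in that direction. Among 26 B cell transcription factors 18 were lower in B-1a cells (median -0.15), and Irf8, Ebf1, Bach2 and Hhex, which all act in B cell development, had every B-1a library below every B-1b library. Pax5 differed by a log2 fold change of -0.10. The BCR signaling core had 19 of 24 genes lower in B-1a cells (median -0.18), with Bank1, Blnk and Cr2 separated and Cd79a at -0.07. Among chemokine receptors and homing genes, 12 of 16 were lower (median -0.52), with Gpr183, Ccr7 and Cxcr4 separated and Cxcr5 at -0.47.

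The plasma cell and secretory list was split, with 10 genes higher and 12 lower in B-1a cells (median -0.03). Prdm1, the driver of antibody secretion, was at 7.21, 7.38, 8.07 and 4.58 CPM in B-1a against 2.52, 4.72 and 3.68 CPM in B-1b libraries, while Jchain, which joins IgM into pentamers, was at 16.0, 4.06, 11.4 and 5.93 CPM against 20.4, 47.5 and 19.0 CPM. Jchain was separated and Prdm1 overlapped, and neither passed either fit. The class switch and germinal center list had 4 of 10 genes higher in B-1a cells (median -0.20). The annexin, S100 and Ahnak list had 19 of 23 genes higher in B-1a cells (median 0.13), with Lgals1, Crip1 and S100a1 separated and Anxa1 at -0.15. The BCL2 family had 11 of 15 genes higher (median 0.32), with Bcl2, which protects from cell death, at 139 to 183 CPM against 122 to 134 CPM. Over all 14634 genes tested, 7813 were higher in B-1a cells, and 3.15% were separated in that direction.

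The remaining lists are given by their medians, beside 0.03 over all genes. Cytokines and their receptors had a median of 0.20, cell cycle genes of 0.18 (Mki67 at -0.24, Ccnd2 separated at 0.70), Toll-like receptors and partners of 0.16 (Tlr1 at -0.02) and lipid uptake and metabolism genes of 0.15 (Cd36 at 0.25). The median was 0.04 for MHC class II (H2-Aa at 0.16) and 0.04 for the TET, DNMT and linked enzymes, where Dnmt3a, a DNA methyltransferase, was at 23.3 to 44.8 CPM in B-1a and 19.2 to 22.1 CPM in B-1b libraries and Tet1 was at no more than 1.36 CPM. Immediate early genes had a median of -0.01 (Fos at -0.49), interferon-stimulated genes of -0.02 (Ifit1 at -0.52), integrins of -0.02 (Itga1 at -0.84), inhibitory coreceptors and adaptors of -0.09, activation and costimulation genes of -0.10 (Cd80 at 0.41) and GIMAP genes of -0.12 (Gimap1 at -0.09). The gate markers had a median of -0.24, NK cell markers of -0.17, dendritic cell markers of -0.36 (Flt3 at -0.86), T cell markers of 0.52, erythroid and platelet markers of 0.54 (Hba-a1 at 0.60), and mesothelial and stromal markers of 0.25.

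**Figure D2:**
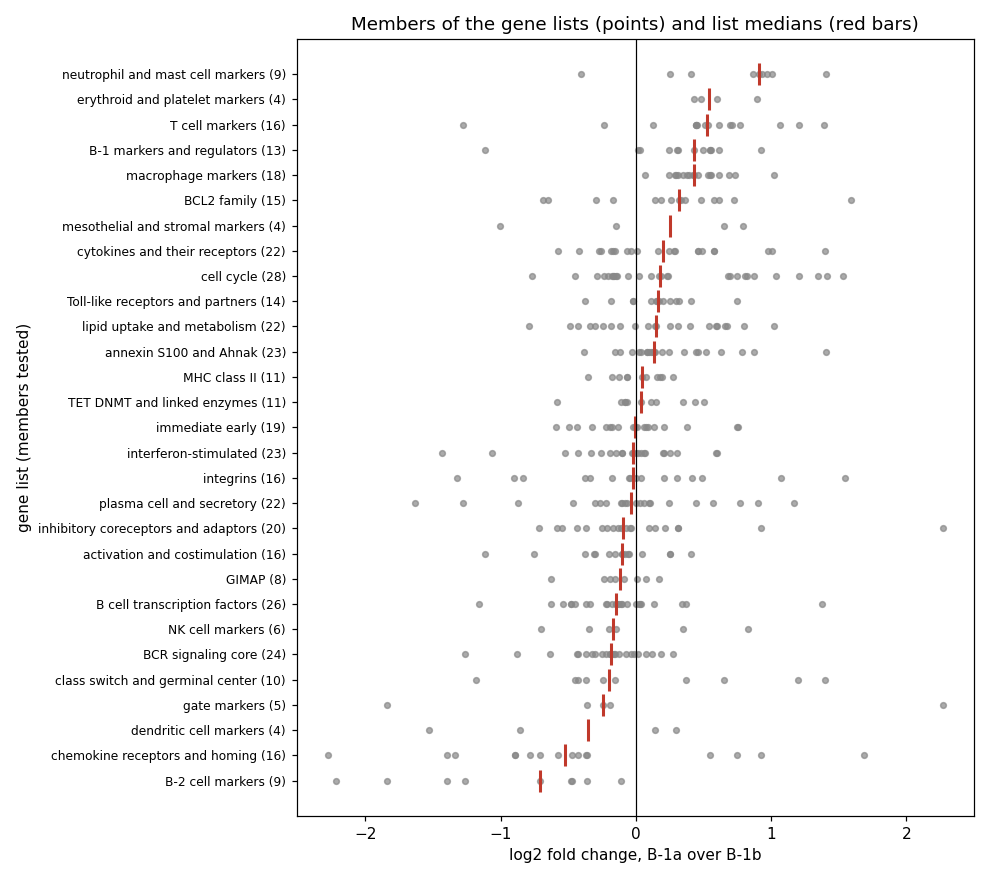
Log2 fold change, B-1a over B-1b, of each tested member (grey points) of the 29 gene lists, with the list median as a red bar and the number of members tested in brackets. B-2 cell markers lie to the left of 0 with a median of -0.71, and all macrophage markers lie to the right of 0 with a median of 0.43.

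The immunoglobulin genes differed most between the subsets. An antibody heavy chain joins 1 of many V genes, a D and a J segment to a constant region, and a light chain joins a V and a J segment. The share of counts on each V gene thus reflects V gene use among the transcripts of a library. It is not a share of cells or clones, since transcript levels per cell are not known and fragments that fit several genes were not counted. Of 223 immunoglobulin genes tested, 189 (84.8%) were lower in B-1a than in B-1b cells, against 46.6% of all genes. The median log2 fold change was -1.69 over these genes and 0.04 over the other 14411. Each gene counts alike in these figures, however abundant it is, and the genes are not independent. Where few V genes hold most of a similar total, the shares of the others must be lower. These figures are therefore not separate from the concentration of V counts given below. The share of all counts on immunoglobulin genes overlapped between the subsets. It was 4.93, 6.76, 4.47 and 3.91% in B-1a and 5.29, 6.08 and 4.28% in B-1b libraries, and Igkc had a log2 fold change of 0.03. Without the block 111 of the 223 (49.8%) had an unadjusted p under 0.05, with 105 lower and 6 higher in B-1a cells. With the block 32 (14.3%) were called, against 0.0902% of the other genes. These 32 were 7 heavy chain V genes, 23 kappa chain V genes, Ighg3 and Ighg2b. The libraries of the subsets did not overlap for 94 of the 223 immunoglobulin genes in the direction of B-1b, where 3.4% of all genes tested were separated, and for 1, Igkv14-126, in that of B-1a cells, where 3.15% were.

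**Figure D3:**
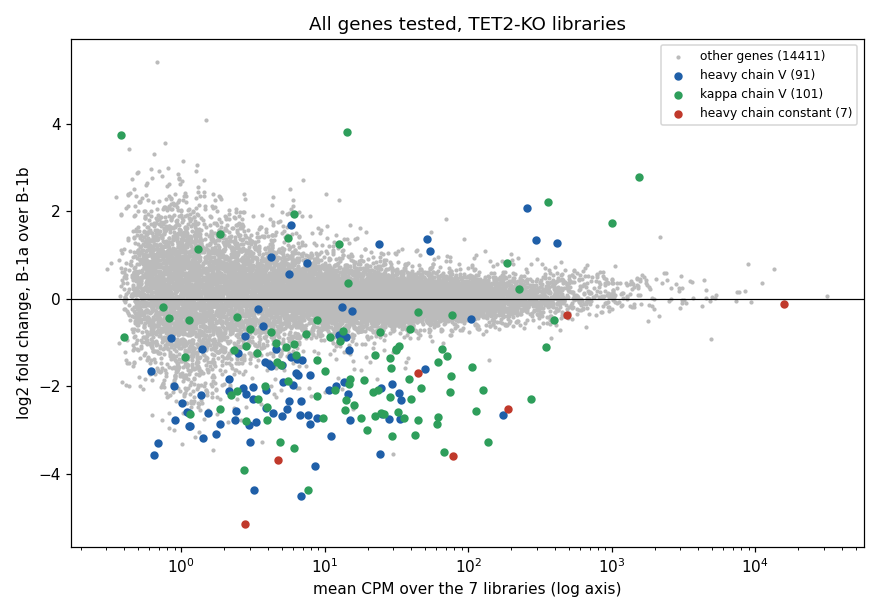
Log2 fold change, B-1a over B-1b, of all 14634 genes tested against their mean CPM over the 7 libraries on a log axis, with heavy chain V genes in blue, kappa chain V genes in green, heavy chain constant genes in red and all others in grey. The medians are -2.08 for the 91 heavy chain V genes, -1.56 for the 101 kappa chain V genes and -2.52 for the 7 heavy chain constant genes.

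Among the V genes lower in B-1a cells, Igkv4-86 was at 13.1, 11.9, 11.8 and 2.76 CPM in B-1a and 92.5, 87.5 and 77.95 CPM in B-1b libraries. The groups were separated, and the log2 fold change was -3.12 (SE 0.43, adjusted p = 0.0685) and -2.81 (SE 0.14, adjusted p = 0.00674) with the block. Ighv1-82 was at 2.11, 1.88, 1.94 and 2.29 CPM against 14.1, 12.99 and 12.04 CPM (log2 fold change -2.66, SE 0.32, adjusted p = 0.0649, and 0.0479 with the block). Igkv7-33, Igkv8-34, Igkv8-21 and Igkv17-127 were separated in the same direction, with log2 fold changes of -4.37, -3.28, -2.63 and -2.71. All but Igkv8-34 (adjusted p = 0.0578) passed with the block. Igkv14-126, the light chain gene known to pair with VH11, was the opposite case, at 1864, 594, 1167 and 2157 CPM in B-1a against 490, 254 and 554 CPM in B-1b libraries. Its log2 fold change was 1.74 (SE 0.44, adjusted p = 0.574, and 0.0582 with the block).

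V genes are read from short promoters that share an octamer bound by Oct factors. The octamer was searched in the 300 bases before each annotated V gene start on GRCm39, as ATGCAAAT on the coding strand of heavy chain and ATTTGCAT on that of kappa chain V genes. It was found before 130 of 183 heavy chain V genes (71.0%) and 94 of 160 kappa chain V genes (58.8%), while either form was found before 1.8% of 21770 protein-coding genes. The windows of 30 bases below are shown so that the shared element (in capitals) can be compared between V genes. Igkv14-126 was higher in every B-1a library, and Ighv6-3, Ighv1-82 and Igkv4-86 were higher in every B-1b library. Ighv12-3, Ighv1-55 and Igkv12-89 overlapped between the subsets. Of these, Ighv12-3 led the heavy chain V counts of B-1a 2 and Ighv1-55 those of B-1a 3. Igkv12-89 led the kappa V counts of B-1a 1, 3 and 4.
Ighv12-3: ttgttccccacATGCAAATgcatgttctac
Ighv1-55: tgctcataaatATGCAAATcctgtgaatct
Ighv6-3: agcacacagaaATGCAAATcatatttccct
Ighv1-82: tgctcatgaatATGCAAATtacttgagcct
Igkv12-89: acactttgctgATTTGCATgtacccaaagc
Igkv14-126: ggttctcaatgATTTGCATgctctcacttc
Igkv4-86: tatatcttgttATTTGCATacttcatattc
These lie, in this order, at chr12:114330667-114330696, chr12:115172237-115172266, chr12:114355898-114355927 and chr12:115916679-115916708, all on the minus strand, and at chr6:68812373-68812402 (minus), chr6:67873059-67873088 (plus) and chr6:68888011-68888040 (minus). The octamer thus stood before V genes of either direction, and its letters were not in this window of Ighv11-2 or Igkv8-21.

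The V counts of B-1a libraries were concentrated on few genes. The effective number of heavy chain V genes (the exponential of the Shannon entropy of their shares, which equals the number of genes in a library that uses all alike) was 13.7, 4.67, 8.52 and 5.05 in B-1a and 41.7, 29.6 and 28.3 in B-1b libraries. For kappa chain V genes it was 9.99, 12.5, 6.73 and 5.31 against 39.6, 40.2 and 34.9. The groups did not overlap in either chain, with means of 7.99 ± 4.19 (SD, n = 4) and 33.2 ± 7.40 (SD, n = 3) for heavy and 8.62 ± 3.22 and 38.3 ± 2.90 for kappa chains. The 2-sided exact permutation test gave p = 0.0571 for each, which is the smallest value that the 35 arrangements of 4 against 3 libraries allow, so no share in this comparison could pass 0.05. The 3 leading heavy chain V genes held 62.4, 81.2, 74.7 and 84.5% of V counts in B-1a against 26.8, 40.7 and 43.0% in B-1b libraries, and the 3 leading kappa chain V genes 71.7, 57.2, 76.8 and 85.4% against 26.1, 27.0 and 31.3%. In the TET2-KO B-2 libraries the effective numbers were 59.8 to 63.1 for heavy and 53.2 to 55.2 for kappa chains.

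**Figure D4:**
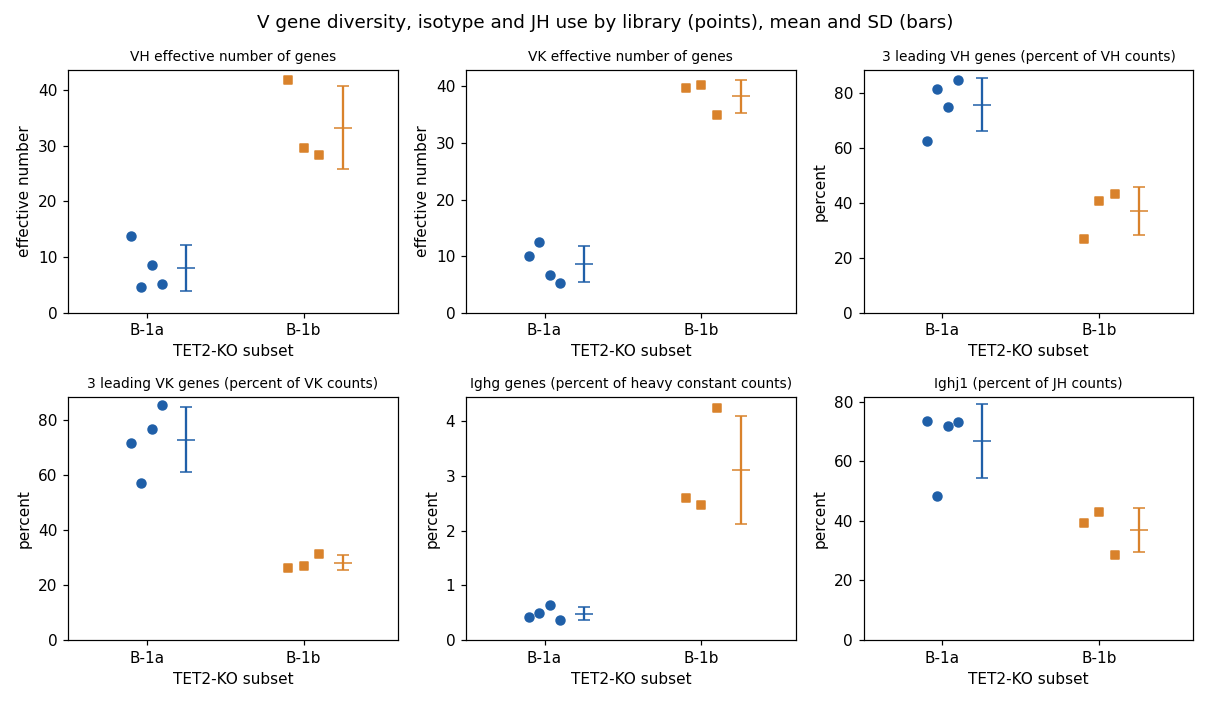
Effective number of V genes, share of the 3 leading V genes, share of the Ighg genes and share of Ighj1 in each TET2-KO library, with points for libraries and the group mean with its SD beside them (4 B-1a, 3 B-1b). The subsets do not overlap in any of the 6 panels, and B-1a libraries have fewer effective V genes (4.67 to 13.7 heavy, against 28.3 to 41.7).

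Which V genes led differed from one B-1a library to the next. Ighv11-2, the VH11 gene of antibodies to phosphatidylcholine, held 27.4, 6.94, 20.2 and 49.9% of heavy chain V counts in B-1a libraries 1 to 4 and 7.94, 3.71 and 10.4% in B-1b libraries. The groups overlapped through B-1a 2, where Ighv12-3 (VH12, also of antibodies to phosphatidylcholine) held 69.3% (95% Wilson interval 68.8 to 69.7) against 2.86, 6.98 and 2.47% in the other B-1a libraries. Ighv1-55 held 23.6, 1.62, 36.4 and 30.5% in B-1a and 4.22, 3.49 and 4.77% in B-1b libraries. Among kappa chain V genes, Igkv12-89 held 37.1, 4.01, 55.6 and 45.5% in B-1a against 5.79, 4.29 and 6.58% in B-1b libraries, again overlapping through B-1a 2, where Igkv5-48 held 36.8%. In that library Igkv4-91, the partner of VH12 in many antibodies to phosphatidylcholine, held 10.1% of kappa V counts. Igkv4-91 was highest in B-1b 2, however, at 183, 580, 243 and 347 CPM in B-1a and 234, 929 and 262 CPM in B-1b libraries. Such intervals cover counting error alone, and fragments are not independent molecules.

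Some of these genes stood out in both subsets under the same replicate number. Ighv12-3 held 20.7% of heavy chain V counts in B-1b 2 against 4.55 and 5.65% in B-1b 1 and 3, beside its 69.3% in B-1a 2. Ighv5-17 held 18.1% in B-1a 3 and 14.4% in B-1b 3 and at most 1.59% in the other 5 libraries. Igkv5-48 held 36.8% of kappa V counts in B-1a 2 and 3.96% in B-1b 2, and at most 0.45% elsewhere. The labels do not tie the numbers to mice, and the source of these shared genes was not tested.

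By family, VH6 had the largest difference among the heavy chain families whose libraries did not overlap. Its share was 2.99, 5.73, 4.35 and 1.05% in B-1a and 19.2, 19.2 and 20.1% in B-1b libraries, a difference in means of -16.0 percentage points that stood between -16.2 and -13.5 within the 3 shared numbers (exact permutation p = 0.0571, adjusted p = 0.0914). Most of it came from Ighv6-3, at 1.88, 4.96, 1.35 and 0.31% against 13.4, 14.8 and 18.2%. VH3, VH9, VH7, VH10, VH2, VH4, VH14, VH13 and VH15 were also lower in every B-1a library, and VH1, VH5, VH8, VH11 and VH12 overlapped. Of the kappa families, VK12 was higher in each B-1a library (39.8, 15.6, 60.8 and 47.3%) than in B-1b libraries (10.3, 9.09 and 10.3%), while VK1 (0.94 to 10.2% against 13.5 to 23.6%) and VK8 (2.40 to 2.88% against 9.02 to 12.9%) were lower.

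**Figure D5:**
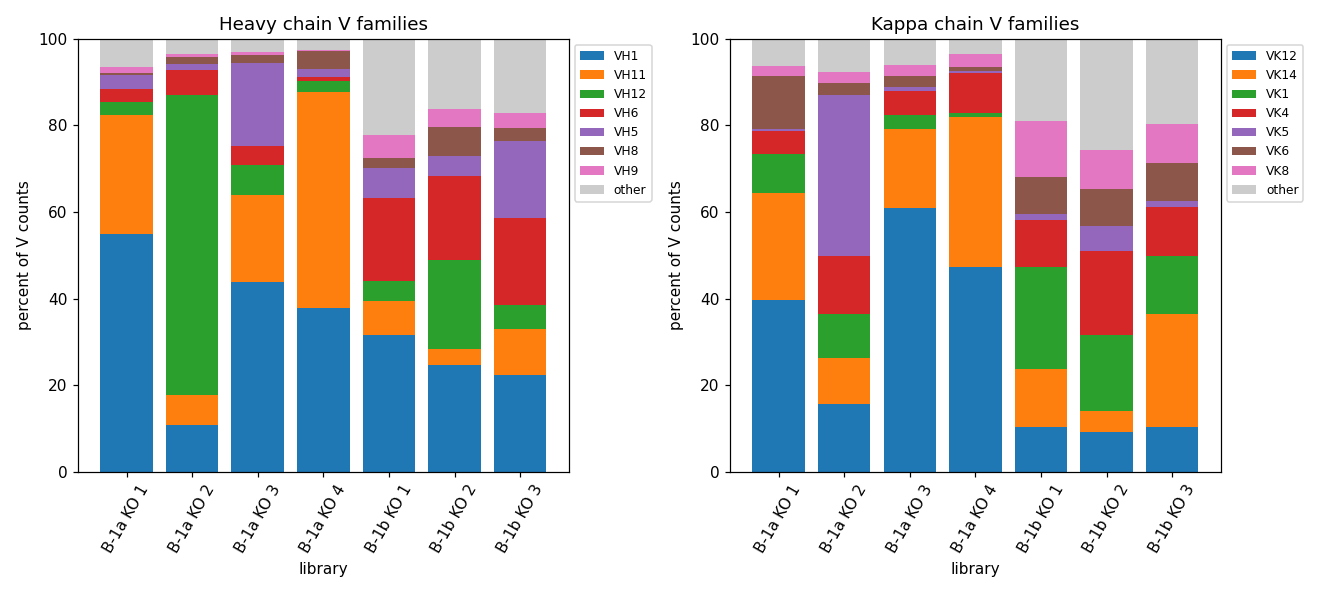
Share of heavy chain V counts (left) and kappa chain V counts (right) held by the 7 largest V families and by all others in each TET2-KO library, in percent. Together VH1, VH11 and VH12 fill most of each B-1a bar, with VH12 at 69.3% in B-1a 2, while VH6 holds 19.2 to 20.1% of each B-1b library.

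Counts on heavy chain J genes differed as well. They were few beside the 13670 to 45966 fragments per library on heavy chain V genes. Fragments that fit several genes were not counted, so these shares need not be those of the repertoire. Of the 179 to 619 fragments per library counted on heavy chain J genes, Ighj1 held 73.7, 48.3, 72.0 and 73.2% in B-1a and 39.1, 42.9 and 28.6% in B-1b libraries. Ighj2 held 1.62, 4.20, 4.11 and 0.56% against 10.6, 10.9 and 8.96%, and Ighj3 4.20 to 5.88% against 12.7 to 16.6%. The groups did not overlap for these 3 genes (exact permutation p = 0.0571, adjusted p = 0.0762 for each), and Ighj4 overlapped.

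Among constant regions, IgM led in both subsets, and the IgG genes were higher in B-1b cells. Ighm held 96.6, 97.6, 96.2 and 95.2% of heavy chain constant counts in B-1a and 93.9, 94.4 and 91.5% in B-1b libraries. Together the Ighg genes held 0.418, 0.498, 0.635 and 0.373% against 2.60, 2.47 and 4.25%, a difference in means of -2.63 percentage points (exact permutation p = 0.0571, adjusted p = 0.0735). Ighg3, the IgG isotype linked to T cell-independent responses, was at 48.95, 92.6, 77.7 and 30.8 CPM in B-1a and 289, 308 and 482 CPM in B-1b libraries. The groups were separated, and Ighg3 had a log2 fold change of -2.52 (SE 0.36, adjusted p = 0.0685, and 0.0331 with the block). Ighg2b was at 24.9, 8.69, 17.2 and 3.35 CPM against 193, 139 and 158 CPM, with a log2 fold change of -3.59 (SE 0.54, adjusted p = 0.0771, and 0.0208 with the block). Ighg2c, Ighg1 and Igha were lower in every B-1a library, with Igha at 0.13 to 0.16% of constant counts against 0.29 to 0.63%. Ighd overlapped, at 1.76 to 4.29% against 2.76 to 3.58%.

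Lambda chains held 31.7, 58.8, 30.4 and 37.7% of light chain constant counts in B-1a and 34.9, 41.1 and 35.6% in B-1b libraries, so the groups overlapped and B-1a 2 was the highest of the 7. Iglc1 was separated, at 3.64 to 5.98% against 6.88 to 8.18% (exact permutation p = 0.0571, adjusted p = 0.343). Iglc2 and Iglc3 are near-identical copies, and fragments that fit both were not counted, so their shares are uncertain. Of the counts on kappa and lambda V genes, lambda V genes held 13.5, 65.8, 18.3 and 11.9% in B-1a libraries. In B-1b libraries they held 29.9, 39.5 and 27.1%, so only B-1a 2 was not below every B-1b library. This difference was not tested. In B-1a 2, shares of kappa V counts therefore cover the smaller part of its light chain V counts.

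The same subsets from WT mice could be read in part only. In the libraries labelled WT 1 and WT 2, gate markers went against the labels. The library labelled B-1a WT 1 had 5.15 CPM of Cd5 and 815 CPM of Fcer2a, that labelled B-1b WT 1 had 18.7 CPM of Cd5, that labelled B-1a WT 2 had 1.64 CPM of Cd5 and that labelled B-1b WT 2 had 598 CPM of Fcer2a. The genotype by subset interaction over all 15 B-1a and B-1b libraries called 0 of 15972 genes (edgeR, smallest adjusted p = 0.9999, 250 genes at an unadjusted p under 0.05), and 0 of 17107 without WT 1 and WT 2 (172 genes at an unadjusted p under 0.05). DESeq2 was not run on the interaction. This does not show that the difference was alike in both genotypes.

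Between the subsets of WT 3 and WT 4 alone, edgeR called 500 of 15097 genes, 316 higher in B-1a and 184 in B-1b. With WT 1 and WT 2 included as labelled, it called 0 of 13800 genes. These counts were not tested against those in TET2-KO. In WT 3 and WT 4, Adm was at 141 and 97.0 CPM in B-1a against 40.8 and 16.1 CPM in B-1b libraries. B3gnt8 was at 16.1 and 17.7 CPM against 70.5 and 54.8 CPM. Lmo2 was at 41.8 and 56.7 CPM against 113 and 127 CPM, and Ighg3 at 36.0 and 75.1 CPM against 455 and 499 CPM. For these 4 of the genes called with the block the order was that of the TET2-KO libraries. It was not so for Igkv17-127, also called with the block. Its WT 3 and WT 4 libraries overlapped, at 150 and 213 CPM in B-1a against 195 and 184 CPM in B-1b. Igkv4-86 and Ighv1-82, at log2 fold changes of -3.12 and -2.66 in TET2-KO, were at -0.89 and -1.06 in these WT libraries, and no difference between the genotypes passed the interaction test. Their effective number of heavy chain V genes was 22.4 and 31.7 in B-1a and 55.0 and 49.0 in B-1b libraries, set beside 4.67 to 13.7 and 28.3 to 41.7 in TET2-KO, and VH11 held 28.5 and 19.2% against 1.90 and 1.16%. Whether the 2 genotypes differ in these shares was not tested.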

How the data were processed

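The authors deposited raw counts per gene and library. Per the file headers, fragments were counted with featureCounts 1.6.1 without strand on GENCODE vM32, and the submitters' processing notes name fastp, STAR and GRCm39. Fragments that fit several genes were not counted, which lowers near-identical V and constant genes, and without strand overlapping genes cannot be told apart. Symbols were added by Ensembl ID from the vM39 annotation of the same build (56310 of 56953 genes matched), and 431 genes were classed as immunoglobulin genes by gene type.

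B-1a TET2-KO (4) and B-1b TET2-KO (3) libraries were compared with edgeR 4.0.16 in R 4.3.3 (filterByExpr, TMM, robust quasi-likelihood test, Benjamini-Hochberg over all 14634 genes), with a call at an adjusted p under 0.05. CPM are TMM-scaled over the 7 libraries, or over all 21 where WT or B-2 libraries are given. DESeq2 1.42.0, other filters and scalings, thinning, and leaving out libraries were alternatives. Same-numbered libraries had deviations from the group means that correlated at 0.20, 0.12 and 0.17, against -0.19 to 0.02 for other pairs. These correlations are weak, and subtracting the group means itself lowers the other pairs when same-numbered pairs are above 0. The replicate block of the fit is given where it changes a call. The labels do not say which animal each library came from, while the study counts them as mice, so p-values measure the spread between these libraries.

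Shares of V, J and constant counts were tested over libraries with a 2-sided exact permutation test in scipy 1.17.1, adjusted within each kind of share. Tests were tried on simulated data. Named were up to 12 separated genes per direction with a mean of at least 5 CPM in the higher group, by fold change among called genes and otherwise by smallest p, up to 6 immunoglobulin genes per direction, the 6 most abundant V genes per chain, list members that were called and the first gene of each list. Genes outside that rule, including those called only with the block, were chosen after their values were seen. The gene lists and the members were chosen with earlier results of these data known. Results on some gate and list genes are not reported here.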

Additional observations from a re-analysis of the deposited data

Results flagged for a closer look

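In the 4 B-1a libraries, 21 of 132 values tested had 1 library far from the rest. Its gap to its nearest neighbour was large against the whole range of the group. Chance gives about 1 in 20 for independent values that were not chosen by their level. Here some V genes were chosen by their mean share, and V genes and their families were both tested, so these rates cannot be compared. Library B-1a 2 stood above the other 3 for Ighv12-3 (1990 CPM), Igkv5-48 (2126 CPM), Tcstv2a (126 CPM), Cma1 (388 CPM) and Ighv8-5 (14.2 CPM). The same library had the highest shares of VH12 (69.3%), VK5 (37.3%) and Ighj4 (41.6%) and the lowest share of Ighj1 (48.3%). Library B-1a 3 was far above the others for Ighv5-17 (349 CPM), the VH5 share (19.2%) and Robo1 (19.4 CPM). Library B-1a 1 was so for Ighv1-9 (258 CPM), Igkv14-100 (38.7 CPM), Igkv1-122 (21.3 CPM), Hba-a1 (15.1 CPM), Srms (8.17 CPM), Ighv1-11 (2.81 CPM) and the VK6 share (12.3%). Library B-1a 4 was far below the others for Igkv4-86 (2.76 CPM) and far above them for Igkv17-121 (92.3 CPM).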

How the results depend on the processing

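Counts of called genes are given as all, non-immunoglobulin and immunoglobulin genes, beside 0, 0 and 0 in the fit without the block. They were 88, 37 and 51 in DESeq2, 100, 46 and 54 without a filter on low counts, 14, 3 and 11 with at least 10 counts in every library, 38, 13 and 25 with the 3 TET2-KO subsets in one fit, 6, 0 and 6 with all 21 libraries, and 45, 27 and 18 without B-1a 4 and B-1b 3. The replicate block gave 45, 13 and 32. Chosen after seeing the data, the block gave 841, 737 and 104 without B-1a 4 and B-1b 3, 370, 281 and 89 in DESeq2, 46, 13 and 33 with scaling without immunoglobulin genes, and 112, 66 and 46 with at least 10 counts. Leaving out 1 library gave 0 to 961, 0 to 853 and 0 to 109 calls over both fits, and at most 6 without the block (without B-1a 4). DESeq2 size factors, scaling without immunoglobulin genes and thinning left 0 calls without the block. Of the calls with the block, 42, 10 and 32 had an absolute log2 fold change over 1, a limit that cannot alter a count of 0. The 45 genes called with the block kept their direction in every alternative that tested them. Each alternative used libraries from which these genes were chosen, so this is not independent support.

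Some values changed sign. When 1 library was left out, differences in share ran from -0.61 to 0.23 percentage points for Ighd, -6.18 to 16.1 for VH12, -7.62 to 0.65 for VH5 (2.24 without B-1a 4 and B-1b 3), -2.33 to 9.99 for VK5 and -3.94 to 5.55 for lambda. Log2 fold changes with 1 library left out, in either fit, ran from -0.10 to 0.65 for Adgre1, -0.19 to 0.89 for Cd36, -1.88 to 4.58 for Hba-a1, -1.65 to 2.35 for Ighv12-3, -0.88 to 0.45 for Igkv4-91, -1.23 to 0.23 for Itga1, -0.47 to 0.43 for Anxa1, -0.26 to 0.16 for Cd79a, -0.10 to 0.40 for H2-Aa, -1.58 to 0.37 for Ifit1, -2.08 to 1.52 for Ighv1-9, -5.14 to 1.61 for Ighv5-17, -3.29 to 4.49 for Igkv5-48, -0.50 to 0.16 for Mki67, -0.22 to 0.043 for Pax5, -0.35 to 0.85 for Tet1 and -0.29 to 0.24 for Tlr1. Without B-1a 4 and B-1b 3, Ighv5-17 was at 2.03, Pax5 at 0.034, Mki67 at 0.13 and Tet1 at 0.66, the log2 fold change of H2-Aa was -0.021, and with the block besides, Cd79a was at 0.039, Mki67 at 0.15, Ifit1 at 0.18 and Tet1 at 0.85. With the replicate block, alone and then in DESeq2, with scaling without immunoglobulin genes and with at least 10 counts, Ighv1-9 was at -0.28, -0.42, -0.28 and -0.28, Cd79a at 0.082, 0.083, 0.078 and 0.085, Tlr1 at 0.10, 0.11, 0.10 and 0.11, and Anxa1 at 0.13 in each. Tet1 was at 0.21, 0.22 and 0.21 in the first 3 of these. The log2 fold change of Igkv5-48 was -0.0084 in DESeq2 with the block. The cause was not tested. The blocked fit rests on 3 pairs, and shares over 7 libraries cannot pass 0.05.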
